A study of Mus musculus with 97 samples.

Results

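The heart and the jejunum are organs of contrasting work, and the transcripts that set them apart are described here from 8 control hearts of Experimental batch 3 and 8 control jejuna of Experimental batch 4, taken by their labels as 16 of the 97 libraries of the series. All donors were female C57BL/6 mice of 11 weeks that ate normal chow for 3 weeks and received a daily intraperitoneal injection of PBS (phosphate buffered saline) in the last of them. Every library came from a separate animal, and the hearts and jejuna came from different cohorts. The labels give dissection batches 1 to 4 within each cohort, and heart replicates 6 and 7 were both of batch 2. RNA was taken from the whole heart, or from 30 mg of jejunum flushed of its content. Both samples are therefore whole tissue, with all the cell types that each organ holds. The wider study gave other groups naproxen, celecoxib or tryptophan, and those mice are not described here.

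The library kits differed. Heart libraries were selected for polyadenylated RNA (Illumina TruSeq Stranded mRNA), whereas jejunum libraries came from total RNA depleted of ribosomal RNA (Illumina Ribo-Zero Plus), because the jejunum RNA had integrity numbers (RIN) below 8 per the labels. Tissue, kit, cohort, RNA integrity and sequencing depth thus coincide and cannot be told apart. For this reason only large differences are counted as results. A gene passed the 8-fold rule when its adjusted p was at most 0.05 and its log2 difference, heart minus jejunum, was at least 3 in size. A gene was called restricted to a tissue when the log2 difference was at least 6 (64-fold), its mean there reached 10 CPM (counts per 1000000 counts of the scaled library), and the 8 libraries of one tissue did not overlap the 8 of the other.

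As background, the heart is built mainly of cardiomyocytes, whose sarcomeres slide actin over myosin when calcium leaves the sarcoplasmic reticulum, and whose mitochondria burn chiefly fatty acids. The jejunum is lined by a folded epithelium of absorptive enterocytes, mucus-secreting goblet cells, hormone-secreting enteroendocrine cells and, at the base of the crypts, stem cells and antimicrobial Paneth cells. Beneath that lining lie immune cells, nerves and smooth muscle. Both organs share vessels, fibroblasts, nerves and macrophages.

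The hearts had between 47362851 and 69813210 estimated counts per library and the jejuna had between 12152612 and 26915195. Transcripts of the mitochondrial genome took 19.1% to 26.6% of the counts in hearts and 4.22% to 8.52% in jejuna. Across genes, log2 levels correlated between hearts with Pearson's r of 0.978 to 0.993 and between jejuna with r of 0.948 to 0.978, a description in which genes are not independent replicates. Some libraries stood apart for genes or summed lists named below: jejunum replicate 1 was the highest by a gap in 19 of them and the lowest in 5, heart replicate 6 the highest in 18, heart replicate 3 the lowest in 6, heart replicate 7 the highest in 4 and heart replicate 4 the highest in 3.

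Of 51368 genes in the table, 17080 had enough counts to be tested. An adjusted p of at most 0.05 (edgeR's quasi-likelihood test, Benjamini-Hochberg adjustment) was reached by 14721 of them, 86.2%, of which 7160 were higher in heart and 7561 higher in jejunum. The median log2 difference over all tested genes was -0.05. The 8-fold rule was passed by 1253 genes towards heart (7.34% of the tested genes) and by 2369 towards jejunum (13.9%). Restricted to heart were 260 genes (1.52%), and restricted to jejunum were 625 (3.66%). Every list below is read against these shares. Without heart replicates 4 and 6 and jejunum replicate 1, 1255 genes passed the 8-fold rule towards heart and 2484 towards jejunum, and 266 and 630 were restricted, heart before jejunum. Without heart replicate 3, 1221 genes passed towards heart and 2441 towards jejunum, and without heart replicate 7, 1217 and 2440.

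The restricted genes took large parts of each library. Genes restricted to heart held 27.2% to 29.7% of all counts in hearts and 0.156% to 0.227% in jejuna. Genes restricted to jejunum held 0.018% to 0.0477% of the counts in hearts and 23.6% to 32.9% in jejuna. No count at all was found in any of the 8 jejuna for 39 of the heart-restricted genes, nor in any of the 8 hearts for 67 of the jejunum-restricted genes. For such genes the fitted log2 difference depends on a prior count, so a lower bound is given, set against a floor of 3 counts over the 8 libraries of the tissue that lacks the gene. Bounds and floors cover counting error only.

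**Figure D1:**
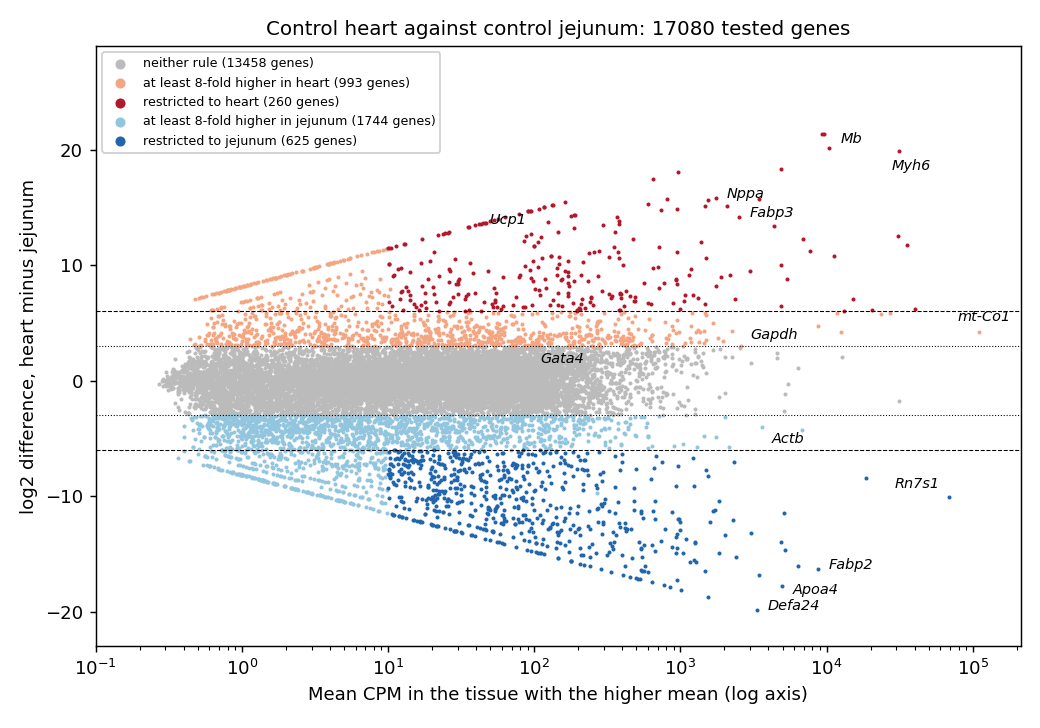
Each point is 1 of the 17080 tested genes, with its mean CPM in the tissue with the higher mean on a log axis and its log2 difference, heart minus jejunum, on the vertical axis; dotted lines mark log2 differences of 3 and -3, dashed lines 6 and -6. Dark red points are the 260 genes restricted to heart and dark blue points the 625 restricted to jejunum, while paler points passed the 8-fold rule only; the slanted edges are genes with no count in the other tissue.

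The labels matched the tissues. All 6 markers of cardiomyocytes and all 10 markers of absorptive, goblet and Paneth cells were restricted to the labelled organ. Myh6, the alpha myosin heavy chain that drives contraction of the adult mouse heart (GRCm38, chr14:54941921-54966927), had 26150 CPM in the lowest heart, a median of 32840 and 35070 in the highest, against 0 to 0.199 CPM in jejuna (median 0). Myl2, the ventricular regulatory light chain (chr5:122100951-122113472), had 7042 to 13090 CPM in hearts (median 8511) and no count in any jejunum, which makes it at least 574000-fold higher in heart. Fabp2, the intestinal fatty acid binding protein (chr3:122895072-122899506), had 0 CPM in 7 hearts and 0.753 CPM in heart replicate 4, against 4661 to 10670 CPM in jejuna (median 9120). Its log2 difference was -16.27 (SE 0.85, adjusted p = 1.55e-12); DESeq2's Wald test gave -4.17 with an adjusted p of 0.125, and the cause was not tested. Sis, the brush border sucrase-isomaltase (chr3:72888557-72967863), had 0 to 0.175 CPM in hearts (median 0) and 1567 to 4586 CPM in jejuna (median 3321). In all of these the tissues were separated by several powers of 10, with jejunum replicate 1 the lowest jejunum for both Fabp2 and Sis.

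**Figure D2:**
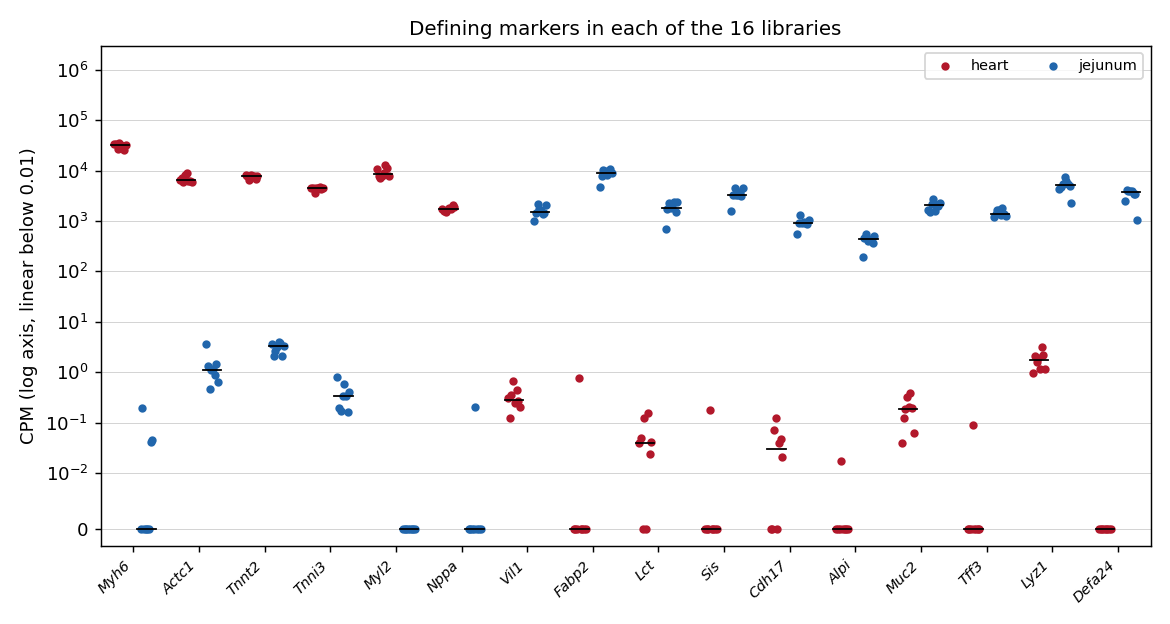
CPM of the defining markers in each library on a log axis that is linear below 0.01; red points are hearts, blue points jejuna, and black bars are medians of 8 libraries. From left to right stand 6 cardiomyocyte markers, 6 markers of absorptive epithelium, 2 of goblet cells and 2 of Paneth cells, and no heart overlaps any jejunum.

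Promoters of a heart pair (Myh6 and Fabp3) and a jejunum pair (Fabp2 and Lct, the lactase gene) are shown because these genes lie at the extremes of the comparison and Fabp3 and Fabp2 are members of one family with opposite restriction. Each runs 5′ to 3′ on the gene's strand from 250 bases before to 50 bases after the RefSeq start in GRCm38.p6. The windows are chr14:54966558-54966857 (minus strand) for Myh6, chr4:130308488-130308787 (plus) for Fabp3, chr3:122894822-122895121 (plus) for Fabp2 and chr1:128328269-128328568 (minus) for Lct. Capitals mark motifs found by script on either strand.
Myh6: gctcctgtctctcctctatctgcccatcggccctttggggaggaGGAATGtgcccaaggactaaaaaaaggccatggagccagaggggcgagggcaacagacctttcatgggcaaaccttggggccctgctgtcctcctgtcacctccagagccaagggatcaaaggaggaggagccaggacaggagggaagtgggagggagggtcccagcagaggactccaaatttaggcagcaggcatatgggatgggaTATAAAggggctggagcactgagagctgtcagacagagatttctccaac
Fabp3: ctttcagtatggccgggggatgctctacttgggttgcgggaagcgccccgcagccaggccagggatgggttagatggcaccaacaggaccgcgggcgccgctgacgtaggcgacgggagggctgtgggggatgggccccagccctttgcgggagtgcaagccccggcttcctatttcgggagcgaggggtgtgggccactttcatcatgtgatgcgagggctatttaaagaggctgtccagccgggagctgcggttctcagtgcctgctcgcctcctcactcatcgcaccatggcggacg
Fabp2: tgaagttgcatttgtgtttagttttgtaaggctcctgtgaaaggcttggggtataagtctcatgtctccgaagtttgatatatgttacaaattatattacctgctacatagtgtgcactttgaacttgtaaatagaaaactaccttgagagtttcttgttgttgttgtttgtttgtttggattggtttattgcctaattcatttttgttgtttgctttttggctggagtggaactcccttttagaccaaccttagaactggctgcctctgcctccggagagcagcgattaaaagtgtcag
Lct: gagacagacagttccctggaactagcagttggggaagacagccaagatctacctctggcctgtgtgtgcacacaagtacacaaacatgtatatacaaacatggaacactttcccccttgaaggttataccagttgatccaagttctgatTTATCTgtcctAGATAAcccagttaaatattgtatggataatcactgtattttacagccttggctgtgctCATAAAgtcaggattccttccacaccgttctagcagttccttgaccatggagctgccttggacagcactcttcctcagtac

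Motifs were searched on both strands and none of those found overlap. The core promoter box was searched as TATAAA, the motif of zinc finger factors such as Gata4 as AGATAA, that of the intestinal Cdx factors as TTTATG and that of the muscle and epithelial Tead factors as CATTCC. Motifs of the MEF2, serum response, HNF4 and HNF1 factors were searched too and had no match in these windows. In Myh6, TATAAA lay at +2 to +7, after the RefSeq start and not before it, and GGAATG, the reverse complement of CATTCC, at -206 to -201. The RefSeq starts of Myh6 and Fabp3 lie inside the annotated gene coordinates given in the text, and the whole Myh6 window lies inside that gene. Those 2 windows are therefore not centred on the annotated gene starts. In Lct, AGATAA lay at -90 to -85 and its reverse complement, written TTATCT on the gene's strand, at -101 to -96. The Cdx motif lay there as CATAAA, reading TTTATG on the opposite strand, at -31 to -26. The Fabp3 and Fabp2 windows held none of these letters, which says nothing of the factors themselves. Over all 27025 mouse promoters of the table, the core box was held by 14.2%, the Gata4 motif by 11.4%, the Cdx motif by 12.1% and the Tead motif by 14.6%. Only 177 of the 260 heart-restricted and 435 of the 625 jejunum-restricted genes had a promoter in the table, under 80%, and a comparison of motif shares between these sets is void.

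Genes of the contractile machinery were far higher in heart. Of 38 sarcomere genes, all tested, 37 passed the 8-fold rule towards heart and none towards jejunum, with a median log2 difference of 10.72, against 7.34% and -0.05 over all genes. Summed over the list, hearts had 91290 to 116300 CPM and jejuna 554 to 788 CPM. Ttn, the giant spring protein titin, had 8688 to 13430 CPM in hearts (median 11180) and 2.17 to 14.8 CPM in jejuna (median 4.57). Tnnt2 and Tnni3, the cardiac troponins T and I that make thin filaments respond to calcium, averaged 7702 ± 658 and 4388 ± 368 CPM in hearts against 3.09 ± 0.755 and 0.372 ± 0.22 CPM in jejuna (SD, n = 8 each). Actc1, cardiac alpha actin, averaged 6923 ± 1125 CPM in hearts and 1.32 ± 0.96 CPM in jejuna. Tpm1, a tropomyosin that smooth muscle also uses, was higher in heart by a log2 difference of 4.70 (SE 0.13) but still had 275 to 407 CPM in jejuna. The member that did not pass was Pdlim5, a scaffold of the Z-disc, at a log2 difference of 2.49. In whole tissue, fewer cells of a type and less RNA per cell cannot be told apart.

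Genes of calcium cycling and electrical excitation followed the same side. Of 29, all tested, 26 passed the 8-fold rule towards heart, with a median log2 difference of 5.63. Atp2a2, the calcium pump SERCA2 that refills the sarcoplasmic reticulum, had 11460 to 14790 CPM in hearts (median 13660) and 178 to 238 CPM in jejuna (median 208). Its inhibitor Pln (phospholamban) had 3758 to 5697 CPM in hearts (median 4813) and 2.78 to 6.79 CPM in jejuna (median 4.91), so the pump was well above 100 CPM in jejuna and the inhibitor was not. Sln (sarcolipin), a second small inhibitor known from atrial and skeletal muscle, had 110 to 177 CPM in hearts and no count in jejuna, at least 8153-fold higher. Ryr2, the calcium release channel, averaged 2366 ± 425 CPM in hearts and 17.2 ± 4.75 CPM in jejuna, and Casq2, which stores calcium beside it, averaged 885 ± 122 CPM in hearts and 8.19 ± 1.69 CPM in jejuna (SD, n = 8 each). The exceptions were Asph, Kcnj2 and Kcnq1, with log2 differences of 2.26, 2.01 and 0.68; Kcnq1 encodes a potassium channel that both organs carry, at 36.4 to 54.7 CPM in hearts and 22.6 to 37.8 CPM in jejuna. With uninjected hearts of experiment 1 in place of these, Kcnq1 gave -0.14 (adjusted p = 0.415). Here and below, that alternative uses only the 5 female control hearts of that experiment.

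The heart is also an endocrine organ, and 5 of 7 tested genes for natriuretic peptides and other cardiac secreted factors passed the rule towards heart (median log2 difference 7.20). Nppa, atrial natriuretic peptide (chr4:148000722-148002079), had 1514 to 2041 CPM in hearts (median 1735), against 0 CPM in 7 jejuna and 0.205 CPM in the remaining one. Nppb, the B-type peptide, varied more among hearts, with 57.8 to 198 CPM (median 67.7), and had no count in any jejunum, at least 5677-fold higher in heart. Corin, the protease that cuts the precursor of atrial natriuretic peptide, averaged 239 ± 37.6 CPM in hearts and 0.107 ± 0.0694 CPM in jejuna (SD, n = 8 each). Apln, the peptide apelin, had a log2 difference of 2.31 and Igf1, insulin-like growth factor 1, one of -0.08, and Igf1 did not pass the test.

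Cardiac transcription factors were divided. Of 20, all tested, 10 passed the 8-fold rule towards heart and 2 towards jejunum (median log2 difference 2.78). Nkx2-5, a homeobox factor of heart formation, had 34.5 to 41.9 CPM in hearts and no count in jejuna (at least 2413-fold), and Tbx5, a T-box factor, had 45.8 to 54.6 CPM in hearts and none in jejuna (at least 3061-fold). Smyd1, a muscle histone methyltransferase, averaged 477 ± 56.7 CPM in hearts and 0.0832 ± 0.0902 CPM in jejuna (SD, n = 8 each). Among those past the rule towards jejunum was Hand1, a factor of the early heart, which had 0 to 0.0701 CPM in hearts and 0.705 to 2.01 CPM in jejuna, with no overlap. Gata4, a zinc finger factor of both heart and gut development, differed by only 1.09 on the log2 scale, at 97.8 ± 6.56 CPM in hearts and 46.1 ± 16.1 CPM in jejuna. All 5 tested genes of the Irx family of homeobox factors passed towards heart (median log2 difference 7.62).

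Genes of energy supply were higher in heart to unequal degrees. Of 13 tested genes that hand on oxygen, phosphate and glucose in muscle (of 14 listed), all 13 passed the 8-fold rule, with a median log2 difference of 7.43. Mb, the oxygen store myoglobin (chr15:77015487-77050670), had 8117 to 11350 CPM in hearts (median 10730), and a single count in all jejuna together, in 1 library at 0.0336 CPM. The ratio of pooled levels was 1934000 with a 95% counting interval of 347100 to 76390000. Ckmt2 and Ckm, the creatine kinases of muscle mitochondria and cytosol, averaged 2081 ± 241 and 1765 ± 147 CPM in hearts against 0.0719 ± 0.0892 and 6.13 ± 1.31 CPM in jejuna (SD, n = 8 each). Slc25a4, which exchanges ATP for ADP across the inner mitochondrial membrane, averaged 4875 ± 439 CPM in hearts and 56.5 ± 12.1 CPM in jejuna.

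For fatty acid oxidation, 12 of 26 genes passed the rule towards heart and all 26 were higher there (median log2 difference 2.99). Lpl, the lipase that frees fatty acids from circulating triglyceride, averaged 5369 ± 694 CPM in hearts and 12.2 ± 7.07 CPM in jejuna, and Cpt1b, the muscle gate for fatty acids into mitochondria, averaged 632 ± 32.8 and 6.22 ± 1.49 CPM (hearts, then jejuna; SD, n = 8 each). Hadha and Hadhb, subunits of the trifunctional protein of beta-oxidation, differed by log2 values of 3.31 and 3.66; without scaling factors Hadha gave 2.81. Of 26 nuclear-encoded subunits of the respiratory chain, 3 passed and all 26 were higher in heart (median 2.07). Cox6a2 and Cox8b, cytochrome oxidase subunits of heart and muscle, had 888 to 1132 and 234 to 663 CPM in hearts against 0 to 0.135 and 0.0663 to 0.545 CPM in jejuna. The third was Ndufs1 of complex I, at a log2 difference of 3.22 (2.71 without scaling factors). The broad respiratory chain thus lay under the 8-fold line, and the muscle isoforms Cox6a2 and Cox8b lay far above it. Cox7a1, a further cytochrome oxidase isoform of heart and muscle, lay just under the line at a log2 difference of 2.96. It averaged 684 CPM in hearts and 88.1 CPM in jejuna.

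**Figure D3:**
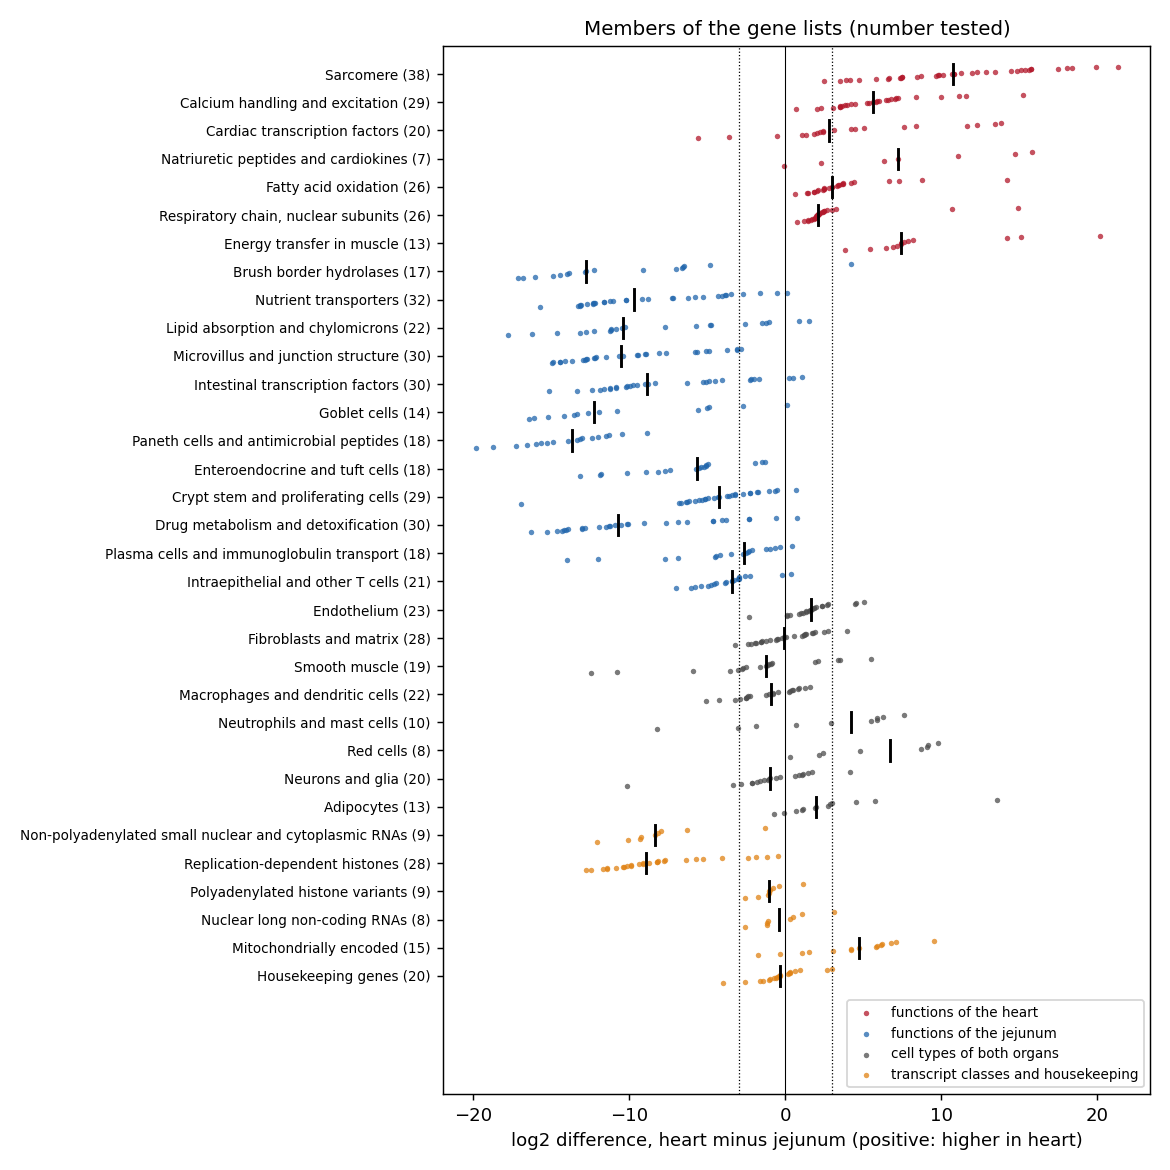
Log2 difference, heart minus jejunum, of each tested member of the gene lists, with the number tested in brackets; black bars are list medians and dotted lines mark 3 and -3. Red lists describe functions of the heart, blue lists functions of the jejunum, grey lists cell types of both organs and orange lists transcript classes and housekeeping genes; sarcomere genes have a median of 10.72 and Paneth cell genes one of -13.65.

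In the jejunum the digestive enzymes of the brush border formed the counterpart. Of 17 tested hydrolases (of 18 listed), 16 passed the 8-fold rule towards jejunum, with a median log2 difference of -12.76, against 13.9% of all tested genes. Lct, the lactase that splits milk sugar, had 0 to 0.156 CPM in hearts (median 0.0396) and 702 to 2399 CPM in jejuna (median 1851). Mgam, maltase-glucoamylase, averaged 0.294 ± 0.204 CPM in hearts and 4873 ± 1317 CPM in jejuna, and Anpep, aminopeptidase N, averaged 18 ± 1.75 CPM in hearts and 2315 ± 718 CPM in jejuna (SD, n = 8 each). Anpep, then, had transcripts in every heart, between 16 and 21.1 CPM. Alpi, intestinal alkaline phosphatase, gave a single count in all hearts together, a pooled ratio of 156200 with a counting interval of 28040 to 6171000 in favour of jejunum. The exception was its paralog Alpl, the tissue-nonspecific alkaline phosphatase, which had 29.5 to 34 CPM in hearts and 0.806 to 3.72 CPM in jejuna, a log2 difference of 4.21 (SE 0.23, adjusted p = 2.13e-12).

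Transporters of sugars, peptides, amino acids and bile acids passed in 28 of 32 tested cases (34 listed), with a median log2 difference of -9.70. Slc5a1, the sodium-coupled glucose transporter SGLT1, had 0.467 to 1.09 CPM in hearts (median 0.666) and 684 to 2250 CPM in jejuna (median 1700). Slc15a1, which takes up di- and tripeptides, averaged 0.0156 ± 0.0368 CPM in hearts and 1171 ± 365 CPM in jejuna, and Slc6a19, a carrier of neutral amino acids, averaged 0.086 ± 0.107 CPM in hearts and 954 ± 268 CPM in jejuna (SD, n = 8 each). Abcb1a, the drug efflux pump P-glycoprotein, had 19.3 to 30.6 CPM in hearts and 284 to 577 CPM in jejuna. Slc40a1, the iron exporter ferroportin, did not pass the test, at 17.4 ± 2.09 CPM in hearts and 15.8 ± 8.65 CPM in jejuna (log2 difference 0.13, SE 0.23, adjusted p = 0.603). Without jejunum replicate 1, the highest jejunum at 34.9 CPM, its log2 difference was 0.42 (adjusted p = 0.0191), which is past the test and still far under 8-fold. It was past the test too with the hearts of experiment 2 (0.89) and the uninjected hearts of experiment 1 (1.56).

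Genes of fat absorption and chylomicron assembly passed in 16 of 22 cases towards jejunum (median log2 difference -10.38). Apoa4 and Apob, lipoprotein coats of chylomicrons, averaged 0.0156 ± 0.0368 and 0.194 ± 0.236 CPM in hearts against 4941 ± 1876 and 5210 ± 1311 CPM in jejuna (SD, n = 8 each). Apoa1 had 0.0193 to 1.44 CPM in hearts, the highest of them in heart replicate 4, and 1374 to 4321 CPM in jejuna. Dgat2 and Scarb1, a triglyceride synthase and a lipoprotein receptor found in many tissues, were higher in heart by log2 differences of 1.53 and 0.89, under the 8-fold line.

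Structural genes of microvilli and epithelial junctions passed in 29 of 30 cases towards jejunum (median log2 difference -10.55). Vil1, the actin bundler villin, had 0.121 to 0.666 CPM in hearts (median 0.285) and 1016 to 2150 CPM in jejuna (median 1515). Krt8 and Krt20, keratins of simple epithelia, averaged 1.31 ± 0.501 and 0.0768 ± 0.096 CPM in hearts against 1836 ± 374 and 1086 ± 280 CPM in jejuna (SD, n = 8 each). Lgals4, a galectin of apical membranes, was present in both, at 38.2 to 88.9 CPM in hearts and 1285 to 2410 CPM in jejuna. Espn, another actin bundler, was the member under the line, with a log2 difference of -2.84.

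Transcription factors of the intestine passed in 23 of 30 tested cases (31 listed), and none passed towards heart (median log2 difference -8.89). Hnf4a and Hnf4g, nuclear receptors of the enterocyte program, had 0 to 0.14 and 0 to 0.0195 CPM in hearts against 263 to 451 and 169 to 444 CPM in jejuna. For Hnf4g, with 3 counts or fewer in all hearts, the pooled ratio was 59240 with a counting interval of 16400 to 489200 in favour of jejunum. Cdx2, the homeobox factor of intestinal identity, had a log2 difference of -12.38, and Isx, a homeobox factor of the gut epithelium, one of -11.23. Creb3l3, a membrane-bound factor of lipid metabolism, averaged 0.104 ± 0.0668 CPM in hearts and 199 ± 58.8 CPM in jejuna (SD, n = 8 each). Gata4, Gata6 and Hes1 were on this list too and lay close to equality on the log2 scale, at 1.09, 0.47 and 0.24.

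Secretory lineages were among the most exclusive of all. The 18 tested Paneth cell and antimicrobial genes (20 listed) all passed towards jejunum, with a median log2 difference of -13.65, and 12 of 14 tested goblet genes (15 listed) passed, with a median of -12.30. Summed over the lists, Paneth genes had 1.08 to 5.14 CPM in hearts and 6812 to 19370 CPM in jejuna, with jejunum replicate 8 the lowest, and goblet genes had 5.31 to 7.98 CPM in hearts and 10800 to 18260 CPM in jejuna. Lyz1, Paneth lysozyme, had 0.946 to 3.23 CPM in hearts (median 1.73) and 2256 to 7377 CPM in jejuna (median 5104). Defa24, an alpha-defensin (chr8:21734494-21735471), had no count in hearts and 1049 to 4175 CPM in jejuna, at least 418500-fold higher, and Itln1, an intelectin that binds microbial sugars, was at least 194000-fold higher in jejunum. All 25 tested genes whose symbols begin with Defa passed towards jejunum. Defensins are near-identical copies, so how reads were divided among them is uncertain. Muc2 and Fcgbp, the main gel-forming mucin of the gut and a mucus protein, averaged 0.188 ± 0.12 and 0.0776 ± 0.19 CPM in hearts against 2004 ± 409 and 6374 ± 1654 CPM in jejuna (SD, n = 8 each). The trefoil peptide Tff3 had 0 CPM in 7 hearts and 0.0876 CPM in 1, against 1194 to 1853 CPM in jejuna.

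Rarer epithelial cells were visible as well. Of 24 enteroendocrine and tuft genes, 18 were tested and 15 passed towards jejunum (median log2 difference -5.65). Gip, the incretin hormone of the upper intestine, had no count in hearts and 16.6 to 50.2 CPM in jejuna, at least 4052-fold higher, and Sct, secretin, averaged 0.0125 ± 0.0208 CPM in hearts and 18.9 ± 2.6 CPM in jejuna (SD, n = 8 each). Nts, neurotensin, and Chgb, chromogranin B, were found in hearts at 0.771 to 1.6 and 0.333 to 1.6 CPM against 28.1 to 56.4 and 18.2 to 48.6 CPM in jejuna. Of 29 genes of crypt stem cells and the cell cycle, 20 passed (median -4.24). Olfm4, a secreted marker of crypt base stem cells in which no heart had a count, was at least 56410-fold higher in jejunum. Lgr5, the receptor that marks those cells, averaged 0.287 ± 0.148 CPM in hearts and 30.7 ± 11.0 CPM in jejuna. Mki67 and Top2a, proteins of dividing cells, averaged 2.49 ± 0.853 and 1.17 ± 0.623 CPM in hearts against 115 ± 14.9 and 96.1 ± 12.9 CPM in jejuna.

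Enzymes that handle drugs and dietary compounds were a further block, with 26 of 30 past the rule towards jejunum (median log2 difference -10.75). Cyp3a11, a cytochrome P450 of drug oxidation, had 0 to 0.578 CPM in hearts and 386 to 1573 CPM in jejuna, the widest spread among the 4 enzymes named here. Ces2e, a carboxylesterase, averaged 1.71 ± 0.376 CPM in hearts and 928 ± 238 CPM in jejuna, and Ugt2b34, a glucuronosyltransferase, averaged 0.0168 ± 0.0329 CPM in hearts and 539 ± 145 CPM in jejuna (SD, n = 8 each). Cyp4f14, a fatty acid hydroxylase, averaged 0.246 ± 0.0938 CPM in hearts and 647 ± 166 CPM in jejuna. By symbol, 12 of 12 tested Ugt genes, 8 of 10 Ces genes and 22 of 38 Cyp genes passed towards jejunum, and 1 Ces and 1 Cyp gene passed towards heart.

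Immune cells of the gut wall added immunoglobulin and T cell transcripts. Of 18 tested genes of plasma cells and antibody transport (20 listed), 8 passed towards jejunum (median log2 difference -2.63). Igha, the heavy chain of the mucosal antibody IgA, averaged 0.0701 ± 0.0545 CPM in hearts and 1263 ± 795 CPM in jejuna, and Pigr, which carries IgA across the epithelium, averaged 0.228 ± 0.204 CPM in hearts and 964 ± 279 CPM in jejuna (SD, n = 8 each). Ighm, the heavy chain of IgM, did not pass the test, at 6.12 to 87.9 CPM in hearts (median 15.6) and 4.84 to 89.6 CPM in jejuna (median 11.0), with adjusted p = 0.586; with the hearts of experiment 2 its log2 difference was 1.45 (adjusted p = 0.0373). The light chain Igkc had 0.869 to 36.7 CPM in hearts and 44.7 to 491 CPM in jejuna, a log2 difference of -4.18 (SE 0.76) that was -2.93 against the hearts of experiment 2. Of 89 tested immunoglobulin variable segments, 86 passed towards jejunum; these are near-identical and their counts may share reads. Of 21 tested T cell genes (22 listed), 14 passed towards jejunum (median -3.42). Gzma, a granzyme of cytotoxic lymphocytes, averaged 0.679 ± 0.259 CPM in hearts and 45 ± 17.8 CPM in jejuna. Itgae, the integrin that holds lymphocytes in the epithelium, averaged 0.367 ± 0.176 CPM in hearts and 16.1 ± 3.22 CPM in jejuna.

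Many gene families showed exchanges of their leading member between the organs, and others did not. Levels here are CPM per kb of annotated exon, so that members can be ordered within a tissue. Among fatty acid binding proteins, Fabp3 made up 96.0% of the family level in hearts and 0.00121% in jejuna, whereas Fabp2 made up 0.00307% in hearts and 82.1% in jejuna, followed there by Fabp1 with 12.8%. Fabp3 (chr4:130308595-130315463), whose promoter is shown above, had 2229 to 2864 CPM in hearts and 0 to 0.426 CPM in jejuna. Among actins, Actc1 made up 94.1% in hearts and Actb 69.2% in jejuna. Among myosin heavy chains, Myh6 made up 98.4% in hearts, with Myh7 at 0.271%, while in jejuna Myh11 of smooth muscle made up 45.4%, Myh14 30.5% and Myh9 23.1%. Myh7, the slow beta chain, still passed the 8-fold rule towards heart, at 109 ± 28.7 CPM in hearts and 0.641 ± 0.306 CPM in jejuna (SD, n = 8 each). In some families the same member led in both organs. Tpm1 made up 95.1% of the tropomyosins in hearts and 39.2% in jejuna. Atp2a2 made up 53.8% and 58.4% of the calcium pumps and their inhibitors Pln and Sln, hearts before jejuna.

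Isozymes of sugar and fat metabolism also changed in share. A share can rise because another member falls. Cpt1a averaged 48.8 CPM in hearts and 95.6 CPM in jejuna, a log2 difference of -0.97. Ckb differed by -1.77, so neither passed the 8-fold rule. Creatine kinases were Ckmt2 (69.3%) and Ckm (30.0%) in hearts and Ckmt1 (79.3%) and Ckb (19.8%) in jejuna. Facilitative glucose transporters were Slc2a4, the insulin-responsive GLUT4, in hearts (91.3%) and Slc2a2 (63.7%) with the fructose carrier Slc2a5 (26.4%) in jejuna. Long-chain acyl-CoA synthetases were Acsl1 in hearts (88.3%) and Acsl5 in jejuna (95%), fatty acid transport proteins Slc27a1 in hearts (83.3%) and Slc27a4 in jejuna (86.8%), and carnitine palmitoyltransferases Cpt1b in hearts (96.3%) and Cpt1a in jejuna (83.1%). Of 19 glycolytic isozymes, 7 passed the 8-fold rule towards heart and 3 towards jejunum. Aldoa, the aldolase of muscle, averaged 1965 ± 93.1 CPM in hearts and 182 ± 12.7 CPM in jejuna (SD, n = 8 each), a log2 difference of 3.43 that was 2.92 without scaling factors and 2.57 with the uninjected hearts of experiment 1. Pgam2 of muscle gave a pooled ratio of 22780 in favour of heart (counting interval 7795 to 110500) and Pklr, a pyruvate kinase of liver and gut, one of 12320 in favour of jejunum (4214 to 59730). Ldhb differed by a log2 value of 7.13, while Ldha, the other lactate dehydrogenase, did not pass the test at 0.17 (adjusted p = 0.194) and changed sign to -0.33 without scaling factors.

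Adhesion and regulatory families gave the same picture with exceptions. Cadherins were Cdh2 (40.3%) and the endothelial Cdh5 (40.2%) in hearts and Cdh17 (70.8%) and Cdh1 (26.1%) in jejuna. The main connexin was Gja1 in hearts (74.2%) and Gjb1 in jejuna (45.9%). Of 10 tested claudins, which seal epithelial junctions, 7 passed towards jejunum and none towards heart, and Cldn7 made up 41.6% of the family in jejuna. GATA factors overlapped, with Gata4 (66.3%) and Gata6 (24.3%) leading in hearts and Gata5 (40.3%), Gata4 (37.2%) and Gata6 (20.9%) in jejuna. Only Gata5 and Gata2 of that family passed the 8-fold rule, Gata5 towards jejunum at a log2 difference of -5.26 and Gata2 towards heart. T-box factors were Tbx5 and Tbx20 in hearts and Tbx3 in jejuna (80.4%), and Tbx3 had a log2 difference of -3.34. The 3 tested MEF2 factors, known for muscle genes, were higher in heart by 2.03 to 2.43, none past the rule.

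**Figure D4:**
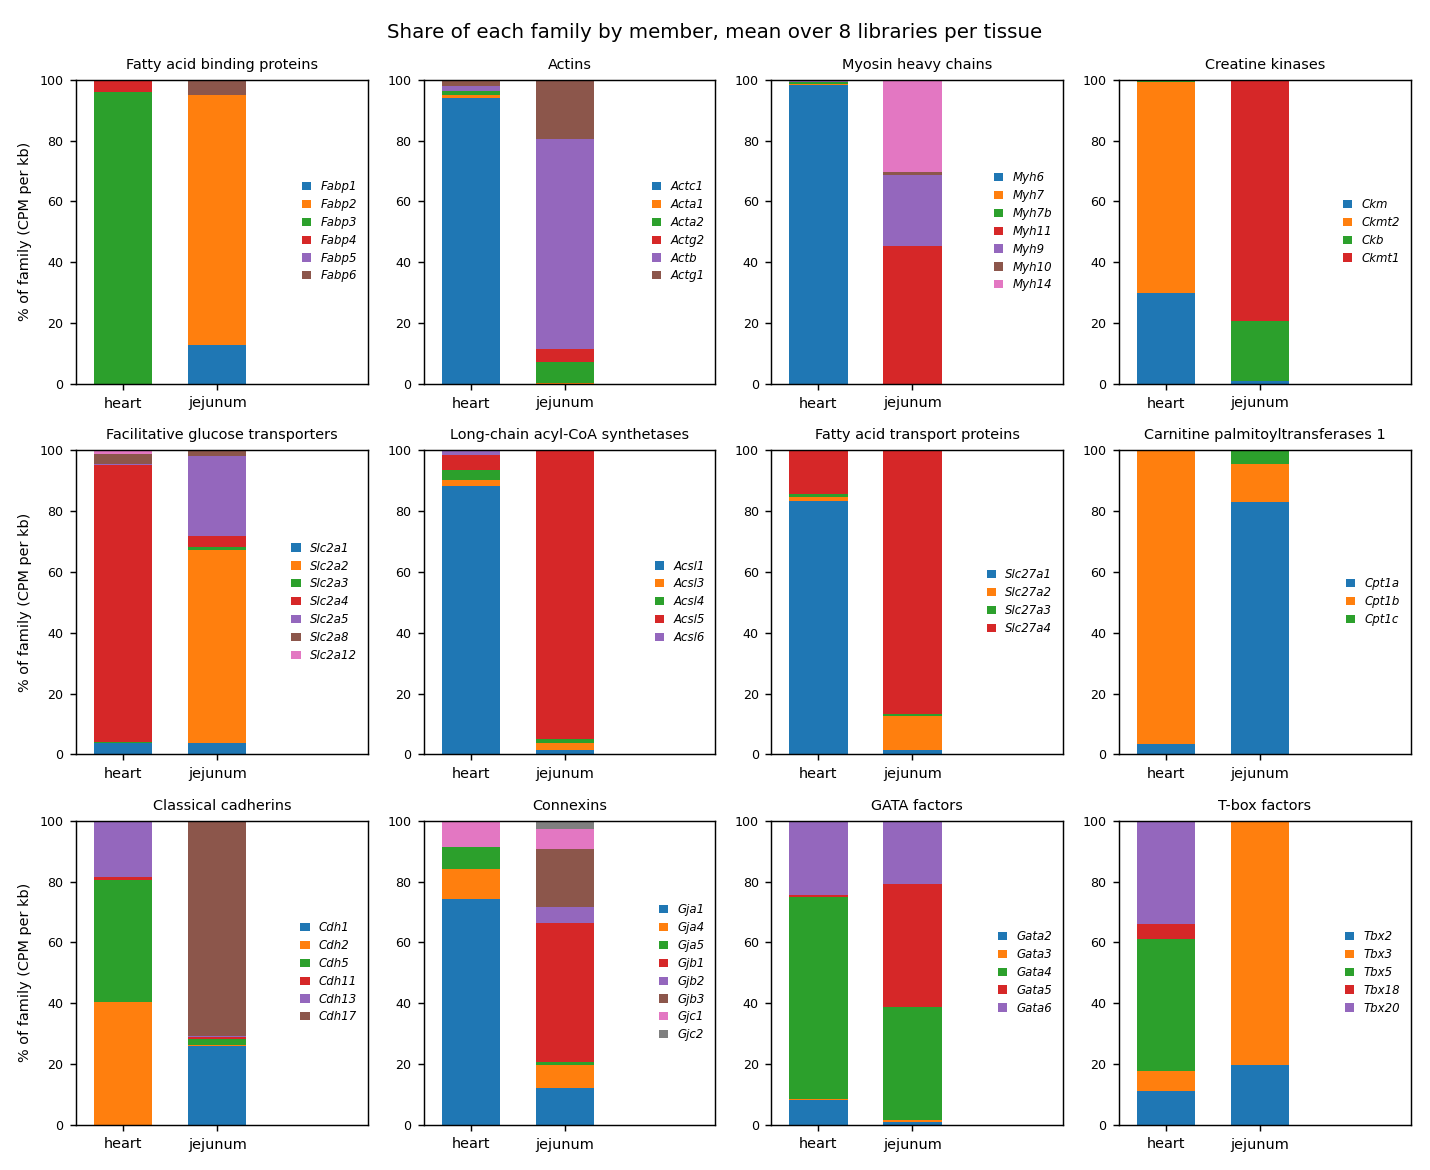
Stacked bars give each member's percentage of its family's level (CPM per kb of annotated exon, mean over 8 libraries) in heart and in jejunum, for 12 families. Different members fill the bars of the tissues in most of the families shown, such as Fabp3 with 96.0% in heart and Fabp2 with 82.1% in jejunum. Gata4 and Gata6 appear in both.

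Among cell types that both organs hold, the fibroblast, endothelial, macrophage and neuronal lists had smaller median differences than the lists of organ functions above. Smooth muscle, blood cells and fat are given below. Of 28 fibroblast and matrix genes, 1 passed towards each tissue, with a median log2 difference of -0.12. These were Mgp, an inhibitor of calcification, at 230 ± 34.1 CPM in hearts and 14.8 ± 4.11 CPM in jejuna, and Col6a3, a chain of collagen VI, at 47.2 ± 5.32 CPM in hearts and 451 ± 258 CPM in jejuna (SD, n = 8 each). Jejunum replicate 1 had 1024 CPM of Col6a3, and without it the log2 difference was -2.95 in place of -3.26. Mgp gave 2.91 with the uninjected hearts of experiment 1, in place of 3.95, so neither of these calls held under every alternative. Of 23 endothelial genes, 3 passed towards heart (median 1.67), among them Gpihbp1, which anchors lipoprotein lipase in capillaries, at 44.2 to 74.7 CPM in hearts and 0.45 to 3.52 CPM in jejuna. Of 22 genes of macrophages and dendritic cells, 3 passed towards jejunum (median -0.95), namely Itgax, Flt3 and Mertk. That is 13.6%, near the 13.9% of all tested genes. Of 20 neuronal and glial genes, 1 passed towards heart and 2 towards jejunum (median -1.0); Vip, a relaxing peptide of enteric neurons, averaged 0.0469 ± 0.0377 CPM in hearts and 58.7 ± 19.3 CPM in jejuna.

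Smooth muscle genes were mixed, as 3 of 19 tested passed towards heart and 5 towards jejunum (median log2 difference -1.25). Actg2, the enteric smooth muscle actin, had 0.946 to 5.2 CPM in hearts and 73.8 to 191 CPM in jejuna, and Mylk, myosin light chain kinase, averaged 35.2 ± 6.86 CPM in hearts and 416 ± 80.5 CPM in jejuna (SD, n = 8 each). Des, the intermediate filament desmin that striated muscle also uses, passed towards heart at a log2 difference of 3.53, but with the uninjected hearts of experiment 1 it gave 2.33 and did not pass. Myh11 lay at the line with -3.04 and gave -2.90 without jejunum replicate 1 and -2.76 with the hearts of experiment 2. Nkx2-3, a homeobox factor of gut mesenchyme, had no count in hearts and was at least 2704-fold higher in jejunum.

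Blood cells and fat differed too. Hbb-bs, a beta globin, had 968 to 4791 CPM in hearts (median 1333) and 1.8 to 5.46 CPM in jejuna (median 3.84), and 5 of 8 tested red cell genes passed towards heart. Heart replicates 6 and 7, both of dissection batch 2, were the highest hearts for it, at 4451 and 4791 CPM. They were also the highest hearts for Cox8b, at 663 and 502 CPM, and the part of the batch was not tested. The globin genes are near copies, so their shares are uncertain. Of 10 tested neutrophil and mast cell genes (17 listed), 5 passed towards heart and 2 towards jejunum. The summed list had 17.8 to 37.6 CPM in hearts and 29.6 to 64.1 CPM in jejuna. The neutrophil proteins S100a8 and S100a9 passed towards heart at low level, at 0.372 to 6.56 and 0.698 to 8.03 CPM in hearts against 0 to 0.205 and 0 to 0.341 CPM in jejuna. Mmp9, a matrix protease, went the other way, at 1.58 to 3.32 CPM in hearts and 8.72 to 29.5 CPM in jejuna. Mast cell proteases divided by kind, as Mcpt4 of connective tissue mast cells had 1.19 to 2.52 CPM in hearts and 0 to 0.0681 CPM in jejuna, and Mcpt1 of mucosal mast cells had no count in hearts and 0.568 to 1.72 CPM in jejuna. Of 13 adipocyte genes, 4 passed towards heart (median log2 difference 1.97). Fabp4, the carrier of fat cells and capillaries, had 374 to 1090 CPM in hearts and 10.6 to 50.4 CPM in jejuna. Ucp1 and Cidea, genes of brown fat, had 1.48 to 241 and 13.2 to 88.4 CPM in hearts against 0 and 0.223 to 0.978 CPM in jejuna, with heart replicate 6 the highest for both and for Fabp4.

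Transcript classes that the kits treat differently also differed, and their part in the results was not tested. Of 9 tested RNAs that carry no poly-A tail, 8 passed towards jejunum (median log2 difference -8.39), and so did 24 of 28 tested replication-dependent histone genes (median -8.95), whose messages end in a stem-loop. Rn7s1, the RNA of the signal recognition particle, had 22.4 to 230 CPM in hearts and 44860 to 103900 CPM in jejuna, where it was the most abundant transcript of every library. H4c3, a core histone, averaged 0.0609 ± 0.0623 CPM in hearts and 83.3 ± 19.0 CPM in jejuna (SD, n = 8 each). Histone variants with poly-A tails showed no such gap, with 0 of 9 past the 8-fold rule either way and a median of -1.05, though 8 of the 9 passed the test alone and were lower in heart. Cell cycle genes with poly-A tails, among them Mki67 and Top2a above, did pass towards jejunum. Of 127 tested genes annotated as sense intronic, 71 passed towards jejunum and 1 towards heart, and of 11 small nucleolar RNAs 10 passed towards jejunum.

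Mitochondrially encoded genes were higher in heart in 13 of 15 cases, with 11 past the 8-fold rule (median log2 difference 4.70). The order within this single genome was uneven. Messages such as mt-Co1 and mt-Cytb had log2 differences of 4.23 and 6.22 and mt-Co2 and mt-Co3 of 1.5 and 1.08, whereas the ribosomal RNAs mt-Rnr1 and mt-Rnr2 had -0.32 (adjusted p = 0.129) and -1.78. In levels, mt-Co1 averaged 111200 ± 13390 CPM in hearts and 5932 ± 1744 CPM in jejuna, and mt-Rnr2 averaged 9137 ± 2142 CPM in hearts and 31460 ± 7376 CPM in jejuna (SD, n = 8 each). The level of mt-Co3 ranged from 746 to 17010 CPM among hearts, and its difference did not pass the test without heart replicate 8 (0.70, adjusted p = 0.0838). Nor did it with all libraries under limma voom (0.63, adjusted p = 0.163), with the replicate number as a block (0.66, adjusted p = 0.137) or without scaling factors (0.54, adjusted p = 0.215). The difference of mt-Rnr1 passed the test without scaling factors (-0.81), with the hearts of experiment 2 (-1.58) or experiment 1 (-0.71), and without heart replicate 7 (-0.44) or jejunum replicate 1 (-0.40). Reads of these genes may be shared with nuclear copies. Among 20 housekeeping genes, 18 stayed under the 8-fold line; Gapdh had a log2 difference of 3.01, 2.51 without scaling factors and 2.12 with the uninjected hearts of experiment 1, and Actb one of -4.01.

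Genes of other organs were searched for in case neighbouring tissue had been dissected along. In jejuna, a few genes of the exocrine pancreas list were present at low level. Clps, colipase, and Pnliprp2, a lipase, had no count in hearts and 17.9 to 62.8 and 30.4 to 85.7 CPM in jejuna, and their source was not tested. Of 20 exocrine pancreas genes, 5 were tested, and all 5 passed the 8-fold rule towards jejunum, against 13.9% of all tested genes. The others had too few counts to be tested. The summed list had 57.1 to 150 CPM in jejuna (median 123), most of it Clps and Pnliprp2. Liver genes were split, with Cps1, an enzyme of the urea cycle that enterocytes share, at 0.0406 to 0.438 CPM in hearts and 335 to 689 CPM in jejuna, and Ahsg, the plasma protein fetuin-A, at 8.14 to 14.7 CPM in hearts and 0 to 0.0671 CPM in jejuna. Ccl25, a chemokine of thymus and small intestine, averaged 2.98 ± 0.429 CPM in hearts and 400 ± 69.4 CPM in jejuna (SD, n = 8 each).

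Single libraries carried far more of some transcripts than the others of their organ. Jejunum replicate 1 had 2104 CPM of Fabp6, the bile acid binding protein of the ileum, against 0.205 to 14.9 CPM in the other 7 jejuna, and 171 CPM of Slc10a2, the ileal bile acid transporter, against 1.46 to 8.4 CPM in the others. The log2 difference of Fabp6 was -9.68 (SE 2.25) with that library, -3.77 without it and -10.11 with heart replicates 4 and 6 left out as well. The log2 difference of Slc10a2 was -10.23 (SE 1.51), -7.8 and -10.28 in the same order. Without heart replicates 4 and 6, no remaining heart had a count of either gene. The values of -10.11 and -10.28 therefore depend on the prior count and do not measure a difference. Heart replicate 4 had 2.31 CPM of Fabp6, 0.753 CPM of Fabp2 and 1.44 CPM each of Reg3b, an antimicrobial lectin of the gut, and Apoa1. In heart replicate 4, 33 of the 625 jejunum-restricted genes exceeded 0.05 CPM and 5 times every other heart, against 0 to 8 genes in each of the remaining hearts. Heart replicate 6 had 23.7 CPM of Scgb1a1, 5.68 CPM of Scgb3a2 and 7.07 CPM of Cyp2f2, all genes of airway club cells, while Scgb1a1 and Scgb3a2 had no count in the remaining hearts or in any jejunum.

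**Figure D5:**
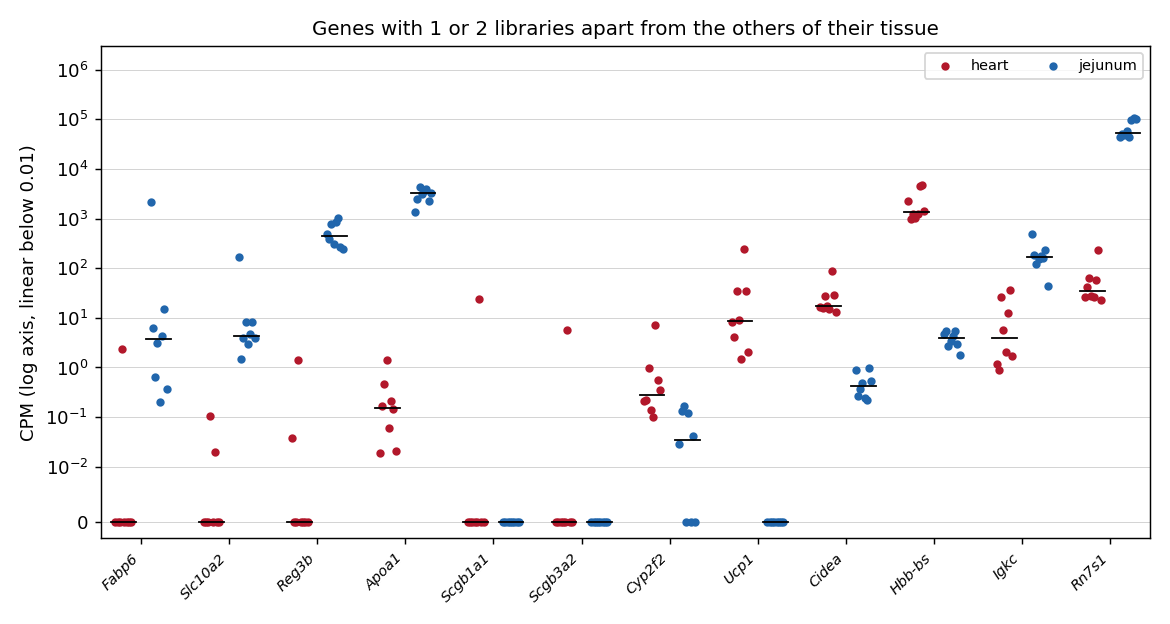
CPM of genes with single libraries apart, on a log axis that is linear below 0.01; red points are hearts, blue points jejuna, and black bars are medians of 8 libraries. The highest blue points for Fabp6 and Slc10a2 are jejunum replicate 1 (2104 and 171 CPM), and the highest red points for Scgb1a1, Ucp1 and Cidea are heart replicate 6.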

How the data were processed

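The data are RNA-seq of mouse heart and jejunum, deposited as 1 table of estimated counts per gene for 97 libraries, which the authors made with Salmon 1.9.0 and R 4.2.2 against GRCm38, per the submitters' processing notes (the step between transcripts and genes: not given in the sources used here). Of its values, 24.4% were not whole numbers. Groups were taken from the labels, whose protocol gives 8 mice per group.

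These deposited estimates were made whole by rounding. The main tool was edgeR 4.0.16, run under R 4.3.3, and the alternatives used DESeq2 1.42.0 and limma 3.58.1. Genes were kept by filterByExpr at a minimum count of 10, scaled by TMM and tested between 8 hearts and 8 jejuna by robust quasi-likelihood F tests with no covariate, with Benjamini-Hochberg adjustment over all 17080 tested genes. CPM refers to the TMM-scaled library size, and mean ± SD is over 8 libraries. The 8-fold and 64-fold rules and the floor of 3 counts are described with the results. Intervals are 95% exact intervals of the pooled counts and cover counting error only. Strand was kept by both kits, but its use in counting is not stated, so overlapping and antisense genes may share reads.

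Named genes follow a rule. It takes the 12 protein-coding restricted genes of each tissue with the highest level per kb (without mitochondrial, immunoglobulin, T cell receptor and predicted genes), up to 4 members of each list past the 8-fold rule, family members that reach 1 CPM, defining markers, and genes of other organs that reach 1 CPM in a library. Some genes outside that rule, such as Pdlim5, Hand1, Kcnq1, Slc40a1 and Ighm, were added after their values were seen, as were list members given by a log2 difference alone. Members and gene lists were chosen with earlier results of these data known. The replicate numbers of hearts and jejuna name animals of distinct cohorts per the labels and pair nothing. On simulated data of 17080 genes, the heart against jejunum test placed 0 of 50 genes changed 4-fold and 50 of 50 changed 16-fold past the 8-fold rule, and 0 unchanged genes. Few genes were changed there, all well counted, evenly in both directions, with a common dispersion and no effect of the kit. In the real data 86.2% of the tested genes differed, so the simulation does not measure how accurate the rule is here. Alternatives covered scaling, filter, test, depth, replicate number, dissection batch, heart cohort and single libraries. Coordinates are those of the GRCm38 annotation and promoters those of RefSeq for GRCm38.p6. Results for a few genes are not reported here.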

Additional observations from a re-analysis of the deposited data

Results flagged for a closer look

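Dixon's 95% limit on the gap between a library and its nearest neighbour was applied to 375 groups of 8 libraries. The groups were genes named in the text, summed lists and library measures. In 62 groups (16.5%) a library stood further apart than the limit allows. Chance gives about 1 in 20 groups only where values are normally distributed and groups are chosen beforehand. Here CPM was not logged, and some genes were named after their values were seen or for reaching 1 CPM in a library. The share of 16.5% therefore cannot be set against 1 in 20. The groups also share libraries and are not independent. Values are in CPM, and what sets each library apart was not tested.

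Heart 6 stood highest in 18 of them. Brown fat and adipocyte genes were among these: the uncoupling protein Ucp1 had 240.5 CPM in heart 6 and at most 34.5 in the other hearts, Cidea had 88.4 against at most 28.95, the fatty acid carrier Fabp4 had 1090 against at most 560.9, and the summed adipocyte list had 2261 against at most 1143. Airway secretory genes had 23.7 (Scgb1a1), 5.68 (Scgb3a2) and 7.07 (Cyp2f2) CPM in heart 6, and the first pair was at 0 in the other hearts. The summed lung and airway list was 38.3 there, the neuron and glia list 136.4, the drug metabolism list 235.3, the endothelium list 2865 and the exocrine pancreas list 1.54. Metabolic genes highest in heart 6 were Eno1 (270.1), Pgam1 (104.2), Cox6a2 (1132), Acsl5 (48.1), Ckmt1 (1.99) and Slc2a5 (1.17). The cardiac factor Tbx20 was lowest in heart 6, at 75.99 CPM.

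Heart 3 was lowest for muscle genes, with 8117 CPM of the oxygen store Mb, 6886 of Tpm1, 3569 of Tnni3, 1520 of Ckmt2 and 690.9 of Ndufs1, and with 20210 for the summed energy transfer list; its Maf level was the highest, at 12.6. Heart 4 was highest for 3 jejunum transcripts at trace level, with 2.31 CPM of Fabp6, 1.44 of Apoa1 and 1.44 of Reg3b. Heart 7 was highest for Rn7s1 (230.3), the summed small non-polyadenylated RNAs (353.8), the mitochondrial ribosomal RNA mt-Rnr1 (7153) and the plasma cell gene Jchain (7.26). Heart 8 was highest for Slc5a1, at 1.10 CPM, and heart 2 lowest for the summed replication-dependent histones, at 74.8 CPM.

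Jejunum 1 stood highest in 19 groups and lowest in 5. The ileal bile acid genes stood furthest apart: Fabp6, a bile acid carrier, had 2104 CPM in jejunum 1 and at most 14.9 in the other jejuna, and the bile acid importer Slc10a2 had 170.7 against at most 8.40. The summed list of other gut segments, which holds Fabp6, was 2316. Genes of smooth muscle and stroma were also highest there, with 502 CPM of Acta2, 1156 of Myh11, 1024 of Col6a3, 70.2 of Gja1, 28.7 of Lpl, 50.4 of Fabp4 and 3.55 of Actc1, as were the summed endothelium list (1476), lung and airway list (198.8) and natriuretic and cardiokine list (27.2). Most of the lung and airway sum was Slc34a2 (189.5 CPM). Most of the cardiokine sum was Igf1 (20.4 CPM) and Apln (6.45 CPM), while Nppa and Nppb had 0 CPM in jejunum 1. Immune genes had 491.2 (Igkc), 55.0 (Itgax) and 23.5 (Itgae) CPM, the transporters Slc34a2 and Slc40a1 had 189.5 and 34.9, and the TMM factor was 1.41. Enterocyte genes were lowest there, with 4661 CPM of Fabp2, 1567 of Sis, 79.35 of Creb3l3, 101.1 of Esrra and 26.2 of Gata6. Elsewhere, jejunum 3 was highest for Pdlim5 (101.4), jejunum 5 for Ighm (89.55) and jejunum 7 for H1f1 (124.8).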

How the results depend on the processing

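The 8-fold rule was passed by 1253 genes towards heart and 2369 towards jejunum, and the 64-fold rule by 260 and 625. With no filter on low counts, 30095 genes were tested and 2196 passed the 8-fold rule towards heart and 4023 towards jejunum. With a minimum of log2 4 in its place, 789 passed towards heart. Under every other alternative run, the 4 counts stayed within 1.5 times the reported ones. One of these, edgeR's glmTreat, tests against the 8-fold and 64-fold limits themselves, where the main test is against no difference. It gave 1037 genes towards heart and 2024 towards jejunum at 8-fold, and 231 and 563 restricted genes. Among named genes, Gapdh, Myh11, Col6a3 and Igkc lost the 8-fold call under it, and Atp2a2 the 64-fold call. Library totals without scaling factors shifted the median difference of shared genes by -0.513 and gave 983 and 2809 genes past the 8-fold rule, heart before jejunum; no other setting shifted it by more than 0.082 in either direction. With hearts of another injected cohort the same pair of counts was 1196 and 2380, and with the 5 uninjected female hearts of experiment 1 it was 1116 and 2790. Leaving out 1 library at a time gave 1207 to 1400 genes towards heart and 2405 to 2548 towards jejunum, and 254 to 266 and 614 to 634 restricted genes. Without hearts 4 and 6 and jejunum 1, an alternative chosen after seeing the data, 1255 and 2484 genes passed.

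With dissection batch nested within tissue, 1307 genes passed the 8-fold rule towards heart and 2405 towards jejunum, and 268 and 634 the 64-fold rule. With the replicate number as a block, 1288 genes passed the 8-fold rule towards heart and 2391 towards jejunum, and 265 and 632 the 64-fold rule. By the labels the numbers name animals of distinct cohorts and do not pair these libraries. Deviations of same-numbered hearts and jejuna correlated at -0.149 to 0.132, and 3 of 8 hearts correlated best with the jejunum of their own number. Such correlations alone cannot show that pairing is absent.

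Of 5827 combinations of 184 genes and an alternative, 5723 kept their direction and their call, 70 lost the call they had (the test, or the 8-fold or 64-fold rule, some of them by falling under its fold with the test still passed), 24 newly passed the test, and 10 changed sign, the last all for genes short of the 8-fold rule. Library totals gave log2 differences of -0.42 for Slc40a1, -0.13 for Ighm, -0.33 for Ldha and -0.03 for Gata6. Uninjected hearts gave -0.14 for Kcnq1, -0.3 for Slc2a1, -0.38 for Ldha and -0.21 for Cox4i1. Leaving out libraries gave 0 to 0.43 for Slc40a1 (lowest without jejunum 8) and -0.09 (without heart 7) to 1.27 (without jejunum 5) for Ighm. The cause was not tested. Depth limits low genes: 3 counts over the 8 libraries are worth 0.00777 CPM in hearts and 0.0163 CPM in jejuna.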

Other observations

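Some families not described above, a few of whose genes stand in the gene lists, showed one-sided counts. Of 16 tested Asb genes, whose proteins carry ankyrin repeats and a SOCS box, 9 passed the 8-fold rule towards heart and none towards jejunum (median log2 difference 4.23). Of 7 tested Hspb genes for small heat shock proteins, 6 passed towards heart (median 6.79). Towards jejunum passed 5 of 6 tested Clca genes (median -13.85) and 5 of 8 Sult genes for sulfotransferases (median -6.96). Btnl genes, for butyrophilin-like proteins, were split, with 4 of 5 past the rule towards jejunum and 1, Btnl9, towards heart. These groups were formed by symbol after the values were seen and carry no test.

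Among non-coding genes, 116 of 451 tested lincRNAs passed the 8-fold rule towards heart and 71 towards jejunum, whereas 954 of 14937 protein-coding genes passed towards heart and 1814 towards jejunum. Of 498 tested processed pseudogenes, 53 passed towards heart and 147 towards jejunum. As the kits differ, what the classes share with the tissue and what with the kit cannot be told apart.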
